A study of Caenorhabditis elegans with 4 samples.

Results

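The broad binding regions of SEM-4 were the 526 regions of at least 1000 bp among the 7554 regions of the combined list, and the other 7028 were narrower. They were chosen by width alone, as end minus start plus 1. Width, and the q-value that goes with it, are therefore described here and not tested. The 3 regions nearest the limit on the inside were all 1000 bp wide, and the 3 nearest on the outside were all 998 bp wide.

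In C. elegans, SEM-4 is the Spalt-type transcription factor, a DNA-binding protein with zinc fingers that helps to set cell fates in the vulva, in neurons and in mesoderm. A factor of this kind contacts short stretches of DNA, but sonication leaves longer fragments, so that ChIP signal spreads around each contact. A called region much longer than a fragment may hold more than 1 contact, which lists of starts and ends do not resolve.

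The study mapped where tagged SEM-4 is bound in hermaphrodites of strain OP57 at the L2 larval stage, grown at 20 °C. Formaldehyde was used at 2% for all ChIP and input libraries. The 2 ChIP and 2 input libraries come from the same strain, an unc-119(ed3) mutant with the bombarded transgene wgIs57, which carries unc-119 and sem-4 fused to TY1, EGFP and FLAG tags. Worms of this single transgenic line thus carry extra sem-4 and unc-119 sequence. Whether the numbered replicates came from separate cultures is not stated. Each ChIP library has a list of PeakSeq regions, 5386 in replicate 1 and 2527 in replicate 2, and the combined list belongs to the series as a whole. Sequencing depth is unknown, because the lists give only the bounds of each region and its q-value, with no read counts. A q-value is the caller's false-discovery estimate for the region.

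All coordinates are on WormBase WS220. No genome or annotation of that build was used, so that the regions are given by position, without sequence and without genes.

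Broad regions made up 6.96% of the combined list and 26.3% of its called bases, 935.9 kb out of 3559.7 kb. Their median width was 1366 bp (quartiles 1144.5 and 1881.2 bp), against 339 bp (234 and 489 bp) for narrower regions. Most lay close to the limit: 308 were under 1500 bp and 107 were from 1500 to 1999 bp. A further 66 were from 2000 to 2999 bp, 31 from 3000 to 4999 bp and 14 of 5000 bp or more. Those 14 alone covered 113 kb. Broad calls took a like share of the replicate lists, where calls of at least 1000 bp held 23.0% of the called bases in replicate 1 (317 calls) and 24.9% in replicate 2 (201 calls).

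**Figure D1:**
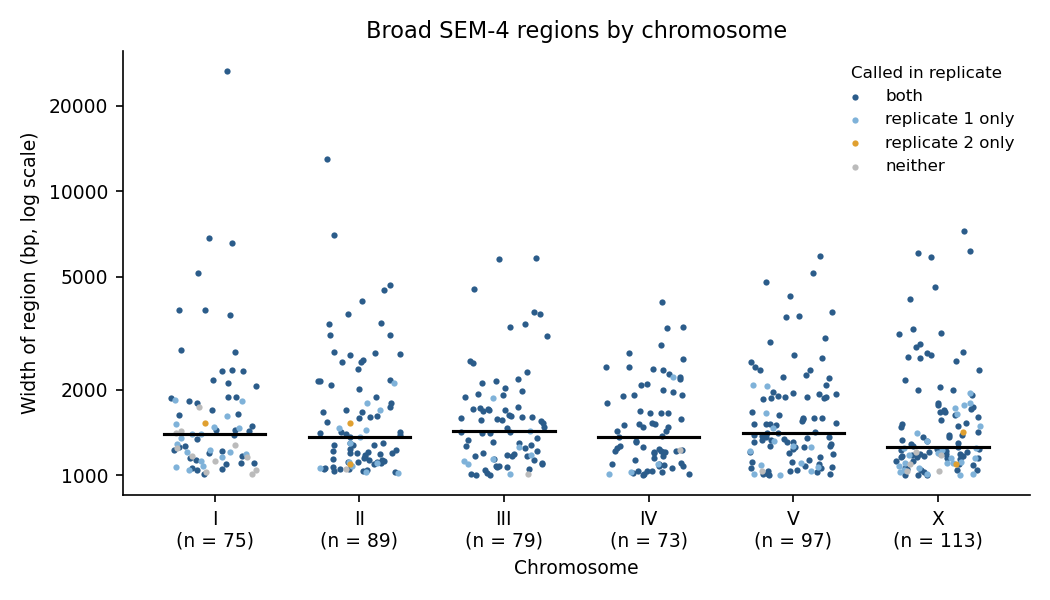
Width in bp on a log scale of each of the 526 broad regions, by chromosome, with horizontal bars at the medians and colours for the replicate lists that a region overlapped. Medians lie between 1261 bp on X and 1429 bp on III, and 1 region on chromosome I reaches 26501 bp.

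The 10 widest regions lay on I, II, V and X and were each called in both replicates. The widest, on chromosome I from 7024272 to 7050772, spanned 26501 bp. In each replicate it was a single call, of 19807 bp in replicate 1 and 14267 bp in replicate 2. Those calls began almost together, at 7030936 in replicate 1 and 7030965 in replicate 2, and neither reached the leftmost part of the combined region. The replicate 2 call ended at 7045231 and the replicate 1 call at 7050742. Its q-value of 6.20e-158 ranked 7 in the combined list. The endogenous sem-4 gene is on chromosome I, but its position on WS220 was not determined, so it is not known whether this region covers it.

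The next widest, 12993 bp on chromosome II from 10541856 to 10554848, had the lowest q-value of the list as held here and 7 replicate calls, a number that no broad region exceeded. Replicate 1 called 5 pieces in it, of 5467, 691, 1045, 2530 and 832 bp, and replicate 2 called 2, of 6481 and 4473 bp. The break of replicate 2 fell at a break of replicate 1: calls ended at 10548359 in replicate 1 and 10548381 in replicate 2, and resumed at 10548617 and 10548663. The leftmost pieces were the strongest in both libraries, with ranks of 4 in replicate 1 and 7 in replicate 2.

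Elsewhere among the 10 the number of calls was the same in both libraries only on X from 6740334 to 6746373. On X from 4142009 to 4149230, replicate 1 had 1 call of 7154 bp, where replicate 2 had calls of 4987 and 1610 bp. On X from 6740334 to 6746373 each replicate had 1 call, of 5442 bp in replicate 1 and 5510 bp in replicate 2. On X from 6251588 to 6257453, replicate 2 had 4 calls, of 1232, 1730, 591 and 821 bp, and replicate 1 had 2, of 4608 and 374 bp. Breaks coincided on chromosome II from 8741254 to 8748241, where calls ended at 8742716 in replicate 1 and 8742697 in replicate 2 and the main ones resumed at 8742962 and 8742976.

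The widest regions on III and IV differed in how far the calls filled them. The one on III, from 13066733 to 13072530 (5798 bp), was filled to 98.9% by 1 replicate 1 call and to 81.5% by 3 calls of replicate 2. The one on IV, from 16167508 to 16171586 (4079 bp), held 4 small replicate 1 calls of 103 to 881 bp, which filled 54.2% of it. Replicate 2 had 1 call of 1028 bp there, 25.2% of the length. Its best calls ranked 656 in replicate 1 and 1148 in replicate 2, against a rank of 199 in the combined list.

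**Figure D2:**
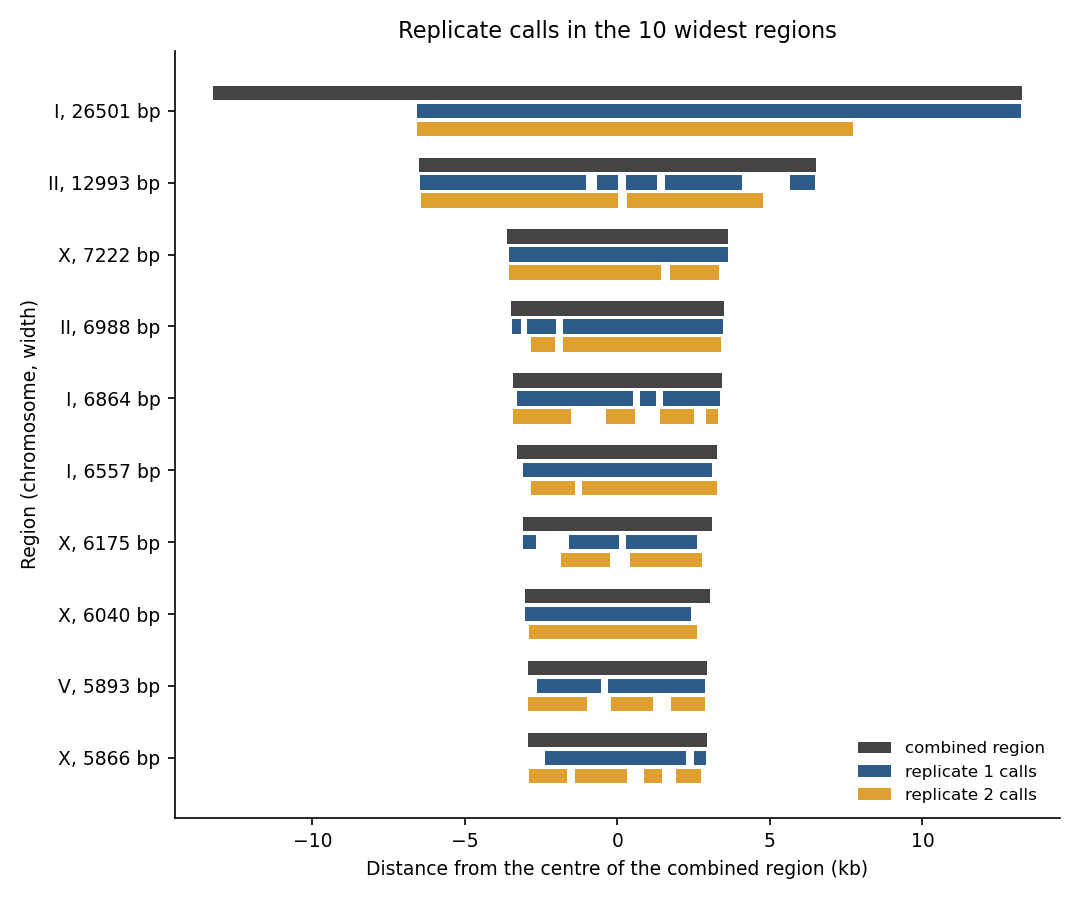
The 10 widest broad regions as bars centred on the region, with distance from its centre in kb, above the replicate 1 calls and the replicate 2 calls that overlap them. The 26501 bp region on I is 1 call in each replicate, and the 12993 bp region on II is 5 calls in replicate 1 and 2 in replicate 2.

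Whether a broad region was found in each library was asked by overlap of at least 1 bp. Of the 526, 416 overlapped both replicate lists, or 79.1% (95% Wilson interval 75.4 to 82.4). Among all combined regions the share was 28.0%, and among the narrower ones 24.2% (23.2 to 25.2). A further 85 broad regions (16.2%) overlapped replicate 1 only, where the share over all regions was 36.4%. Only 5 overlapped replicate 2 alone (0.951%, and 4.01% over all regions), and 20 overlapped neither (3.80%, and 31.5% over all regions). Replicate 1 thus touched 95.2% of the broad regions and replicate 2 touched 80.0%, so that 105 had no replicate 2 call. If the combined list was made from both libraries, which the sources used here do not say, these shares are not independent of the choice by width.

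Support was higher in each wider class of the list until it was complete. The share was 1.59% in both replicates for regions under 250 bp and 59.2% from 750 to 999 bp. From there it was 70.8% from 1000 to 1499 bp, 85.0% from 1500 to 1999 bp and 93.9% from 2000 to 2999 bp, and all 31 regions from 3000 to 4999 bp and all 14 of 5000 bp or more were in both. The limit of 1000 bp marks no step in this series. A wider region also offers more bases to overlap. Counted by base, 49.8% of the bases of broad regions were called in both replicates, against 24.3% of those of narrower regions. The shares called in neither were 16.5% of the bases of broad and 34.7% of those of narrower regions. Among regions that a replicate overlapped, however, narrower ones were filled further. The median filled was 88.55% for narrower and 84.2% for broad regions in replicate 1, and 85.5% and 70.2% in replicate 2.

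**Figure D3:**
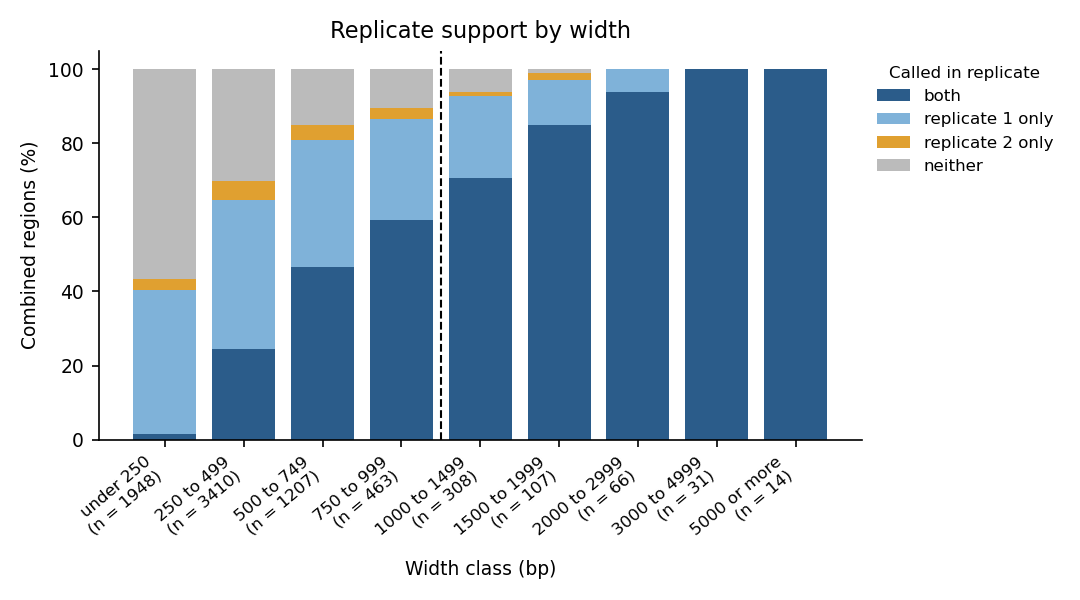
Share of combined regions in percent called in both replicates, 1 of them or neither, by width class in bp, with the dashed line at 1000 bp. The share in both is 1.59% under 250 bp, 70.8% from 1000 to 1499 bp and 100% from 3000 bp upwards.

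Broad regions also had low q-values, with a median −log10 q of 15.7 (quartiles 8.79 and 28.3), against 3.70 (2.66 and 6.02) for narrower regions. All of the 20 regions with the lowest q-values were broad, as were 77 of the first 100 and 245 of the first 500. Spearman's rho of width with −log10 q was 0.54 across the 526 broad regions and 0.58 across the 7028 narrower ones. These describe regions of 1 list and share its depth. Strong regions that were not broad existed as well. The 5 narrower regions with the lowest q-values ranked from 29 to 41 and were 837, 544, 440, 854 and 436 bp wide. They lay on X from 11093628, on IV from 4749715, on II from 10563264, on I from 4171898 and on IV from 654681, and each was 1 call in each replicate.

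The gap in support was smaller among regions of like q-value. The combined list was divided into 10 equal classes of −log10 q, of which the strongest 5 held at least 15 broad regions each and 500 in all. The share in both replicates was lower for broad than for narrower regions in 4 of these 5 classes. In the strongest class it was 96.5% of 310 broad regions (93.8 to 98.0) and 98.7% of 446 narrower ones (97.1 to 99.4). In the next it was 81.1% of 106 (72.7 to 87.4) and 84.1% of 649 (81.1 to 86.7), and below that 47.1% of 51 (34.1 to 60.5) and 57.1% of 704 (53.4 to 60.7). In the remaining classes it was 22.2% of 18 and 30.9% of 738, and 20.0% of 15 (7.05 to 45.2) and 8.65% of 740 (6.83 to 10.9), the last being the class in which broad regions stood higher. The intervals overlapped in all 5 classes, and no test of the differences was made. The share in neither replicate was 0% for both kinds in the 2 strongest classes, but in the third it was 11.8% of broad regions (6 of 51) and 0.994% of narrower ones. In the fourth it was 5.56% of broad and 3.25% of narrower regions, and in the fifth 0% and 11.9%. Had narrower regions been spread over the 10 classes as the broad ones were, 82.0% of them would have been in both replicates and 2.72% in neither, against 79.1% and 3.80% of the broad regions. The median share of length that replicate 1 called was lower for broad regions in each of the 5 strongest classes. Classes are wide at the strong end, where the median −log10 q was 24.6 for broad and 18.1 for narrower regions.

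**Figure D4:**
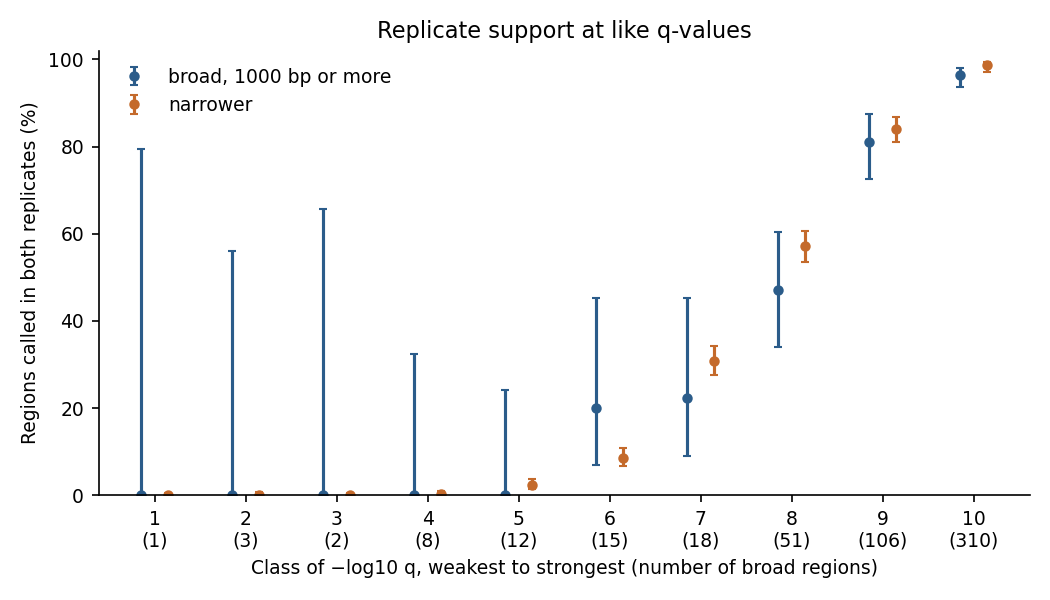
Share of regions called in both replicates, in percent with 95% Wilson intervals, for broad and narrower regions in 10 equal classes of −log10 q from weakest to strongest. In the 3 strongest classes the broad regions stand at 47.1%, 81.1% and 96.5%, and the narrower ones at 57.1%, 84.1% and 98.7%, with overlapping intervals.

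Replicate calls of at least 1000 bp were then counted. Regions with such a call in both lists are by definition part of those overlapping both, so their share could not be the higher. A replicate 1 call of at least 1000 bp lay over 296 broad regions (56.3%), and a replicate 2 call of that width over 174 (33.1%). Over all combined regions these shares were 4.10% and 2.42%, and over the narrower ones 0.199% and 0.128%. Both libraries had such a call at 133 broad regions (25.3%), as at 1.76% of all and at 0 of the 7028 narrower ones. At 189 broad regions (35.9%) neither library did, as at 95.2% of all. Width chose the broad regions, so nothing is read from these differences. In the other direction, 307 of the 317 broad replicate 1 calls and 193 of the 201 broad replicate 2 calls overlapped a broad combined region. Where each replicate had exactly 1 call, in 276 regions, the median call was 1120.5 bp in replicate 1 and 929.5 bp in replicate 2, and replicate 2 was the narrower in 64.5%. Spearman's rho of the widths in both libraries was 0.44 over these 276 regions, which were selected for being broad.

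Replicate calls covered the middle of broad regions more fully than the ends. Replicate 1 called a median of 82.3% of the length of a broad region and replicate 2 a median of 57.5%. Over the 416 regions in both replicates, the first and last 5% of the length were called at 47.9% and 49.1% on average in replicate 1, and at 31.7% and 28.8% in replicate 2. Between 25% and 75% of the length the averages stayed between 83.5% and 88.3% in replicate 1 and between 74.2% and 76.6% in replicate 2. A lone replicate 1 call started a median of 42 bp inside the left edge and stopped 43 bp inside the right edge (389 regions). For replicate 2 the insets were 114 and 136 bp (343 regions). Not all lone calls stayed inside the region: 307 (78.9%) did in replicate 1 and 289 (84.3%) in replicate 2. The same profile was not made for narrower regions.

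**Figure D5:**
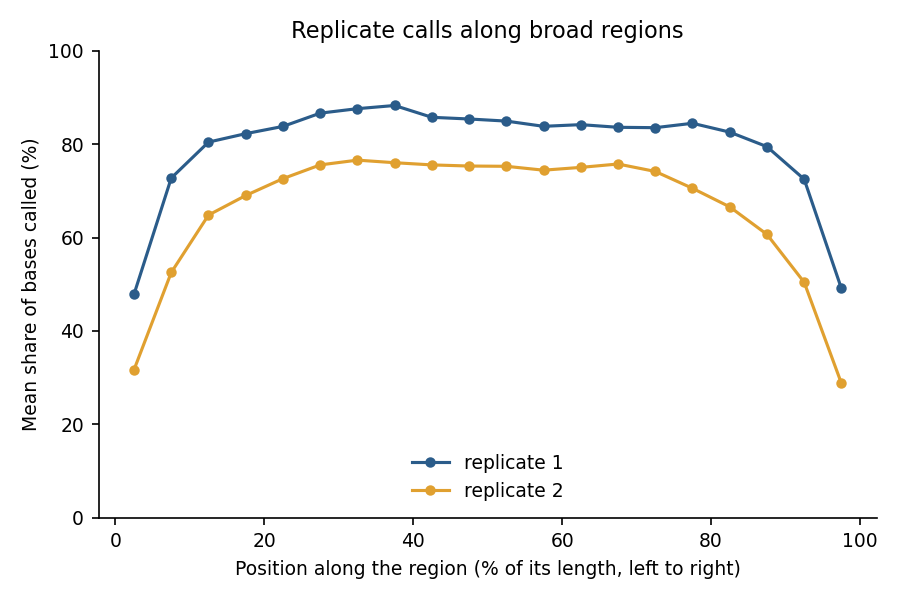
Mean share of bases called in replicate 1 and in replicate 2, in percent, in 20 equal bins from the left to the right end of the 416 broad regions that overlap both lists. Both lines are flat over the middle and fall at both ends, to 47.9% and 49.1% in replicate 1 and to 31.7% and 28.8% in replicate 2.

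Division into several calls was mostly found in broad regions, which were 112 of the 129 combined regions with 2 or more replicate 1 calls and 78 of the 82 with 2 or more replicate 2 calls. Replicate 1 had 2 or more calls in 112 of the 526 (21.3%, interval 18.0 to 25.0), where 1.71% of all combined regions had as many, and 0.242% of the narrower ones. Replicate 2 had 2 or more in 78 (14.8%, interval 12.1 to 18.1), against 1.09% of all and 0.0569% of the narrower ones. Narrow regions have little room for this, since calls within 1 list were never closer than 200 bp. Taken over both libraries, 149 broad regions (28.3%) were divided in at least 1 of them and 41 (7.79%) in both. The commonest pattern was 1 call in each, in 276 regions, followed by 1 call in replicate 1 alone (76), 2 and 1 calls in replicates 1 and 2 (54), and 1 and 2 (35). Divided regions were wider, with a median of 2038.5 bp where replicate 1 had 2 or more calls and 1279 bp where it had 1. The share with 2 or more replicate 1 calls was 9.09% from 1000 to 1499 bp, 40.9% from 2000 to 2999 bp and 74.2% from 3000 to 4999 bp. It was lower, at 50%, in the 14 regions of 5000 bp or more. The share with 2 or more replicate 2 calls was 61.3% from 3000 to 4999 bp and 85.7% from 5000 bp upwards.

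The breaks were short. The 134 breaks between replicate 1 calls had a median of 262 bp (quartiles 232.2 and 373 bp, longest 1553 bp), and the 92 breaks of replicate 2 had a median of 296 bp (247 and 435.5 bp, longest 2415 bp). They fell partly at the same bases. In the 103 regions in both lists that replicate 1 divided, replicate 2 left 63.5% of the break bases uncalled, against 32.8% of the bases that replicate 1 called. In the 78 regions that replicate 2 divided, replicate 1 left 29.2% of the break bases uncalled, against 8.69% of the bases that replicate 2 called. The other way round, in which a replicate joined what the combined list kept apart, was rare: 7 replicate 1 calls and 2 replicate 2 calls ran over a broad region and at least 1 more combined region.

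Where a region was divided, the lowest-q calls of both libraries could lie in different pieces. Of the 140 regions in both lists that at least 1 library divided, these calls overlapped in 119 (85.0%, interval 78.2 to 90.0), and their midpoints lay a median of 347.8 bp apart. Where both libraries divided the region, they overlapped in 32 of 41 (78.0%, interval 63.3 to 88.0). With 1 call in each replicate there is no choice of call, and the calls overlapped in 272 of 276.

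Among the regions with the most calls, 3 had 7 in all. Besides the regions on II at 10541856 and on I at 5372068, this was a region of 3320 bp on III, from 3954201 to 3957520, with 4 calls in replicate 1 and 3 in replicate 2. One of its replicate 1 calls was 6 bp long. On III from 12611863 to 12616392, each replicate had 3 calls, and the short piece at the left end was the strongest in both. That piece was 990 bp in replicate 1 (rank 10) and 793 bp in replicate 2 (rank 4). The other pieces, of 2312 and 588 bp in replicate 1 and 2558 and 366 bp in replicate 2, ranked from 118 to 2426. The regions on X at 6251588 and on V from 19519557 to 19523163 (3607 bp) also had 6 calls in all.

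By chromosome, the largest share of regions that were broad was on X, 10.2% (113 of 1107, interval 8.56 to 12.1). It was 7.90% on II, 7.56% on V, 6.75% on I, 5.75% on III and 4.70% on IV (73 of 1552, interval 3.76 to 5.87). Between X and IV the intervals did not overlap. The share was higher on X than on the autosomes in 9 of the 10 classes of −log10 q. Several of these rest on few regions. The classes outside the 5 strongest held 26 broad regions in all. Within the 5 strongest, the broad regions on X numbered from 3 to 47 per class. Broad regions of X were not the widest, with a median of 1261 bp, and their median −log10 q of 11.9 was the lowest of the 6 chromosomes. Per Mb of span, X had 6.39 broad regions and IV 4.18.

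Support of broad regions was uneven among chromosomes. On IV, 93.2% were in both replicates (interval 85.0 to 97.0), on III 88.6%, on V 84.5% and on II 82.0%. On X it was 69.9% (60.9 to 77.6) and on I 58.7% (47.4 to 69.1). Chromosome I had 30 of its 75 broad regions without a replicate 2 call and X had 32 of its 113. Narrower regions of chromosome I also had the lowest share in both, 12.1%, while those of X had 22.0% and those of II, III, IV and V from 23.4% to 32.3%. Chromosome I held 11 of the 20 broad regions found in neither replicate, and X held 5. These were 14.7% of the broad regions of I and 4.43% of those of X. Narrower regions in neither replicate were also most frequent on I, at 49.2%, against 25.9% to 35.2% on the other chromosomes. Broad regions with their midpoint in the central 50% of the chromosome span were 65.4% (61.2 to 69.3), against 61.9% of narrower regions (60.7 to 63.0) and 62.1% of all regions. On the autosomes the share was 67.1% of broad (62.4 to 71.4) and 63.8% of narrower regions (62.6 to 65.0), and on X 59.3% (50.1 to 67.9) and 50.4% (47.3 to 53.5). The intervals of broad and narrower regions overlapped in each case.

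The 20 broad regions found in neither replicate had widths of 1007 to 1735 bp, with a median of 1138.5 bp. Their −log10 q ran from 2.21 to 7.72, with a median of 3.62, and 4 of them ranked in the best 25% of the combined list. The 5 widest all lay on chromosome I. They were a pair 472 bp apart, from 529210 to 530639 and from 531112 to 532846, and the regions starting at 3722499, 7086633 and 9854906. All 20 had another combined region within 5 kb, as had 93.2% of all broad regions and 73.8% of all combined regions. The region at 7086633 lay near the 6557 bp region that ends at 7085208 and ranked 5 in the list.

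Of the regions in replicate 1 only, the widest was on IV from 11024898 to 11027109 (2212 bp), with 1 call of 1559 bp that ranked 275. The next were on II from 9616870 (2109 bp) and on V from 14195914 (2071 bp), with 2 replicate 1 calls each. The second call on II, of 2930 bp from 9618662 to 9621591, ran beyond the right edge of the combined region at 9618978. It continued into the next broad region, from 9619186 to 9621682, which overlapped both replicate lists. The widest in replicate 2 only, on II from 7776213 to 7777744 (1532 bp), held a call of 551 bp that ranked 2033. Those on I from 13369065 and on X from 12171604 were filled to 93.9% and 95.1% by 1 replicate 2 call each. All 3 of these calls had q-values between 0.00415 and 0.00935, in a replicate 2 list that ran to 0.00987. They ranked from 2033 to 2462 among its 2527 calls.

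Broad regions rarely stood alone. Another combined region lay within 5 kb of 490 of them (93.2%, interval 90.7 to 95.02), where the share was 73.8% over all regions and 72.4% over the narrower ones (71.3 to 73.4). The median distance to the nearest region was 609 bp for broad and 1876 bp for narrower regions, measured from edge to edge. Within 500 bp, 43.7% of broad and 15.6% of narrower regions had a neighbour. The difference was present in each of the 5 strongest classes of −log10 q: in the strongest, 94.5% of broad and 79.4% of narrower regions had a neighbour within 5 kb. Distances are those of 1 list, and regions that the caller might have joined or divided were not told apart.

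Of the 526 broad regions, 217 (41.3%) lay in 91 runs in which each was within 5 kb of the next, 64 of them pairs. Runs were not counted for narrower or for all regions, so no background share stands beside this one. The largest run held 5, on X from 11463471 to 11483161, with widths of 2692, 1291, 6175, 2723 and 1997 bp, and all 5 were in both replicates. They filled 75.6% of the 19.7 kb between the outer ends. Runs of 4 lay on I, II, III (a pair of runs), V and X. On II, 4 broad regions filled 85.3% of the stretch from 6823168 to 6832400, all in both replicates, whereas of the 4 on X from 12168877 to 12179383 only 1 was.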

How the data were processed

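ChIP-seq regions of 2 ChIP libraries were used, and the 2 inputs have no list of their own here. Per the file headers, the deposited lists hold PeakSeq regions on WormBase WS220, each with its bounds and the authors' q-value, at most 0.00998. Comment lines in the deposited lists show that coordinates were carried over from another build. The caller's version, the aligner, read filters and control, and how the replicates were joined into 1 list, are not stated in the sources used here. Depth is unknown, so the precision of a single region's edges cannot be given.

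Members were chosen with earlier results of these data known. Regions were read, ranked by q-value within a list and overlapped (at least 1 bp) with Python 3.11.15, numpy 2.4.6 and pandas 2.3.3. The overlap, coverage and distance functions were tested on simulated data, and overlap counts equalled those of bedtools 2.31.1 for all 7554 regions. Wilson intervals (scipy 1.17.1, 95%) treat regions as independent, cover counting error only, and describe these lists. No test was run: 1 list per library leaves no groups to compare. Chromosome spans ran from base 1 to the last called base in any list, 100.2 Mb in all. Alternatives were a width limit of 800 or 2000 bp, the stronger 50% of regions, joining of regions up to 500 bp apart, 50% overlap, each replicate list, and omission of chromosome I or of a replicate.

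Regions named were the 10 widest, the widest of each chromosome, the 5 with the most calls (of 3 tied at 6 calls, the 2 with the lower q-values), the widest of each kind of support (5 in neither list, 3 in each list alone), the 3 on either side of the width limit, the 5 strongest narrower ones, and up to 3 calls per replicate of at least 1000 bp with no combined region, the widest first. Only 2 per replicate were found. Runs and breaks were chosen for description with their values known.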

Additional observations from a re-analysis of the deposited data

How the results depend on the processing

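Of 50 values under alternatives, 20 stayed within the interval of the main value and 30 moved. For called bases the interval was 24.96% to 27.62%, the main value plus or minus 1 standard deviation of the 2 replicate-list shares. Those 2 shares are also among the alternatives. The other intervals were Wilson intervals. With regions of at least 800 bp, the share in both replicates was 71.7%, in neither 6.24%, with 2 or more calls 14.3% in replicate 1 and 9.35% in replicate 2, of called bases 34.7% and near another region 90.2%. At 2000 bp or more (111 regions) they were 96.4%, 0%, 51.4%, 43.2% and, for called bases, 10.8%. In the top 50% by q-value, the share in both was 83.2%, in neither 1.40%, of called bases 36.5% and near another region 82.8%. With gaps of up to 500 bp joined, 741 regions were broad, with 75.3% in both, 47.0% and 25.8% holding 2 or more calls in replicates 1 and 2, 40.4% of called bases and 86.9% near another region. Without chromosome I, 82.5% were in both and 2.00% in neither. With 1 replicate left out, the share called in the other ranged from 80.0% to 95.2% and the share not called from 4.75% to 20.0%. Replicate 1 calls of at least 1000 bp held 23.0% of called bases and 89.3% had a neighbour within 5 kb, and for replicate 2 these were 24.9% and 74.1%. By the midpoint of the region, chosen after seeing the data, 54.6% were in both and 11.8% in neither, against 23.0% and 36.4% of narrower regions. The cause of these moves was not tested. The share on chromosome I, 14.3%, stayed between 12.6% and 15.4% under its 6 alternatives. No paired analysis was possible because the inputs have no list of their own here.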

Other observations

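The lists of the replicates held 4 calls of at least 1000 bp that overlapped no region of the combined list as held here. Whether regions were called there when the combined list was made is not known, so the order of its widest and strongest regions refers to the rows used here. On chromosome V, replicate 1 had a call of 9777 bp, from 6221388 to 6231164, and replicate 2 one of 7302 bp, from 6222757 to 6230058, the lowest q-values of both lists. On chromosome I, from 15064007 to 15067648, replicate 2 alone had a call of 3642 bp (rank 13). On IV, from 7558255 to 7559503, replicate 1 alone had a call of 1249 bp with a q-value of 0.00556 (rank 4617).

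Among the broad regions, 7 had −log10 q under 3 (1.33%, against 34.5% of the narrower regions). These 7 were 1316 bp wide at most, 4 of them lay on X and none on I, and none was in both replicates. A region of exactly 1000 bp on X from 17481505 to 17482504 was among them (q = 0.00199, rank 5709 in the combined list) although 1 replicate 1 call covered 100% of it and ranked 1364 in the shorter replicate 1 list. Narrower regions this weak were rarely in both replicates either. In the 3 weakest classes of −log10 q, up to 2.919, the counts were 0 of 755, 1 of 752 and 0 of 753.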
